A study of Arabidopsis thaliana with 6 samples.

Results

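The ROOT MERISTEM GROWTH FACTOR (RGF) genes of Arabidopsis thaliana, also named GOLVEN or CLE-like, encode small secreted peptides. The 9 genes described here, RGF1 to RGF9, were taken by their AGI codes from a table of 31276 genes, and all 9 were listed in it. The profiles are RNA-seq of the Col-0 accession, with no mutant or transgene in either group. The later group, 7DAC, is hypocotyl (embryonic stem) tissue kept for 7 days on callus-inducing medium, on which cut tissue turns into a mass of dividing cells. The earlier group, 0DAC, is hypocotyl tissue of 1-week-old seedlings taken directly after cutting. Each group has 3 biological replicates, so there are 6 libraries. The tissue label reads callus for all 6, although 0DAC is freshly excised tissue by the design text, and no source used here says how many explants went into a library.

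RGF precursors are cut by proteases, and a tyrosine of the peptide is sulfated by the enzyme TPST in the secretory pathway. The mature peptide is bound by leucine-rich repeat receptor kinases with SERK co-receptors, and a MAP kinase cascade passes the signal on. In the root tip this maintains the PLETHORA transcription factors and with them the stem cells of the meristem. Other members of the family are known for effects on lateral root initiation and on gravitropic bending.

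The values are TPM, transcript abundance scaled per transcript length to a fixed total in each library, so levels of different genes can be set side by side. TPM keep no depth, so the number of reads behind a value is unknown and no counting interval is given. The libraries differed in scale: nuclear protein-coding genes held 37.6% to 81.0% of the 1000000 TPM in the 7DAC libraries and 59.5% to 86.4% in the 0DAC libraries, and replicate 2 was the highest in each group. A gene is said to have risen or fallen where its Benjamini-Hochberg adjusted p over 18608 tested genes was below 0.05, by limma on log2(TPM + 1). Among all tested genes 13.4% rose and 16.2% fell at 7DAC, 29.6% in all. In this fit the variance of every gene was replaced by the value of the common mean-variance trend. A very small p thus orders a gene among the others, and neither this p nor the SE measures that gene's own replicate spread.

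The RGF family changed its make-up between the excised hypocotyl and the callus. RGF1, RGF2, RGF3 and RGF4 rose, RGF6, RGF7 and RGF9 fell to 0 or near 0, and RGF5 and RGF8 did not pass the test. In bulk tissue, fewer cells of a type and less RNA per cell cannot be told apart. The 4 rises and 3 falls among 9 members stand beside the shares of all genes given above. They were called under every one of the 16 alternative settings in which each gene could be tested. For 7 of the 9 members (all but RGF5 and RGF8) only 1 group had at least 1 TPM in all of its libraries, so these 7 entered the test through the group where they were high, and their number supports nothing by itself.

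RGF3 (AT2G04025), one of the founding peptides of the root tip, was the most abundant member in callus. It stood at 113, 193 and 152 TPM in 7DAC replicates 1, 2 and 3, against 1.98, 0.980 and 2.37 TPM in the 0DAC replicates. The groups lay far apart, and every 7DAC library was well above every 0DAC library. The mean was 86.0-fold higher at 7DAC (152.8 ± 39.7 against 1.78 ± 0.717 TPM, SD, n = 3 each), and the log2 values differed by 5.79 ± 0.44 (SE; adjusted p by limma, 7.10e-37). RGF3 had the 20th largest rise of all tested genes, and its mean at 7DAC ranked 599 among the 18608.

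RGF2 (AT1G13620), which acts redundantly with RGF1 and RGF3 in the root meristem, followed RGF3 closely. Its values were 62.6, 121.9 and 90.8 TPM at 7DAC and 0.570, 0.560 and 1.19 TPM at 0DAC. All 0DAC libraries were near 1 TPM or below, and the groups did not overlap. The mean was 119-fold higher at 7DAC, with a log2 difference of 5.68 ± 0.45 (SE; adjusted p by limma, 7.02e-35). Within each 7DAC library RGF3 stood at 1.81, 1.58 and 1.68 times RGF2, a ratio that does not depend on the scale of the library. RGF2 overlaps AT1G13630 on the other strand, and whether reads were counted by strand is not stated. AT1G13630 was at 1.58 to 4.06 TPM in the 7DAC libraries and at 1.08 to 1.97 TPM in the 0DAC libraries.

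RGF1 (AT5G60810), the peptide for which the family was named, rose to a lower level. It stood at 13.6, 26.8 and 25.6 TPM at 7DAC, against 1.58 and 0.720 TPM in 0DAC replicates 1 and 3, and it was listed at 0 in replicate 2. The groups did not overlap. Its log2 difference was 3.75 ± 0.42 (SE; adjusted p by limma, 2.54e-17), with a mean 28.7-fold higher at 7DAC.

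RGF4 (AT3G30350), a further gene known from gravitropism, was within 1.21 times of RGF1 in each callus library. It stood at 12.8, 23.6 and 21.2 TPM at 7DAC and at 0.270, 0.400 and 0.400 TPM at 0DAC. It was the lowest member at 0DAC in replicates 1 and 3. The mean was 53.9-fold higher at 7DAC, and the log2 difference was 3.86 ± 0.41 (SE; adjusted p by limma, 2.26e-19). Folds of RGF1 to RGF4 rest on 0DAC levels of at most 2.37 TPM, and the log2 differences depend on the constant added: they ran from 2.15 to 4.52 with 5 added and from 5.36 to 6.74 with 0.1 added.

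**Figure D1:**
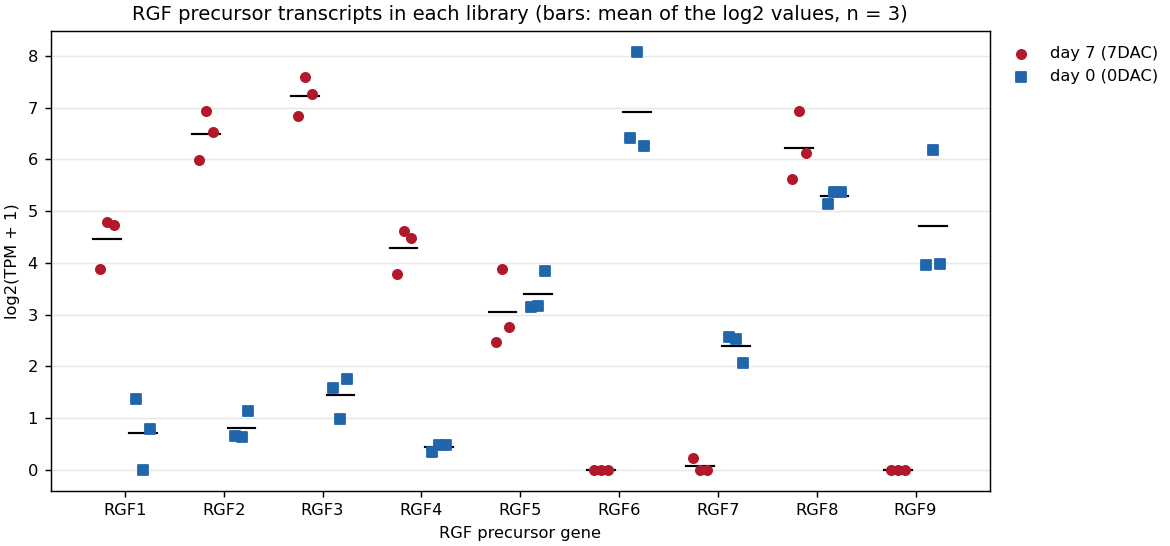
Each point is 1 library: the y axis gives log2(TPM + 1), the x axis the 9 RGF genes, circles are the 7DAC libraries, squares the 0DAC libraries, and bars the means of the log2 values. The 7DAC points of RGF1 to RGF4 lie above all their 0DAC points, those of RGF6, RGF7 and RGF9 lie at or near 0, and only RGF5 has groups that overlap.

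RGF6 (AT4G16515), known from work on gravitropic bending of the hypocotyl and root, was the most abundant member in the excised hypocotyl and the values in callus were all 0. It was listed at 0 in all 3 libraries of 7DAC, against 84.1, 268 and 75.5 TPM in 0DAC replicates 1, 2 and 3. At 0DAC it ranked 881 among the tested genes by its mean of 142 ± 109 TPM (SD, n = 3), and replicate 2 was more than 3 times either other replicate. The log2 difference was -6.91 ± 0.44 (SE; adjusted p by limma, 1.31e-51), the 22nd largest fall of all tested genes. The adjusted p by limma was 1.64e-06 after median-of-ratios scaling and 5.32e-12 with no filter. No fold is given against a group listed at 0, and the fitted difference moves with the constant added, to -4.64 with 5 and to -10.22 with 0.1. AT4G16510, which overlaps RGF6 on the other strand, stood at 5.85 to 11.5 TPM in the 7DAC libraries and at 11.2 to 13.7 TPM in the 0DAC libraries.

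RGF9 (AT5G64770), which is also known from gravitropism, had the same pattern at a lower level. It was listed at 0 in all 3 7DAC libraries and stood at 14.5, 71.2 and 14.8 TPM in the 0DAC libraries. Replicate 2 again stood apart from the other 0DAC replicates, which were nearly equal. The log2 difference was -4.70 ± 0.41 (SE; adjusted p by limma, 1.29e-28). RGF6 was 5.81, 3.76 and 5.10 times RGF9 in 0DAC replicates 1, 2 and 3, so the pair was high together in replicate 2. After median-of-ratios scaling, which divides each library by a common factor, replicate 2 still held 219 TPM of RGF6 against 108 and 76.9 in replicates 1 and 3, and 58.2 TPM of RGF9 against 18.6 and 15.1. Without that replicate the log2 differences were -6.33 for RGF6 and -3.97 for RGF9, and both were still called.

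RGF7 (AT3G02240), a peptide known from immune signalling, was low at 0DAC and fell further. It stood at 0.170 TPM in 7DAC replicate 1 and was listed at 0 in replicates 2 and 3, against 4.93, 4.75 and 3.17 TPM at 0DAC. The groups did not overlap, and its log2 difference was -2.31 ± 0.33 (SE; adjusted p by limma, 3.69e-11). It could not be tested where at least 5 TPM in 3 libraries were required, since no library reached that level.

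RGF8 (AT2G03830), known as a regulator of lateral root initiation, was abundant at both times. It stood at 48.5, 121.3 and 68.5 TPM at 7DAC and at 34.3, 40.5 and 40.4 TPM at 0DAC, and every 7DAC value was above every 0DAC value. The mean was 2.07-fold higher at 7DAC, with a log2 difference of 0.93 ± 0.43 (SE; adjusted p by limma, 0.0918), which did not pass. Its 7DAC values lay closer together after median-of-ratios scaling, at 68.5, 77.9 and 70.4 TPM, against 44.2, 33.1 and 41.2 at 0DAC. On that scale RGF8 rose, with a log2 difference of 0.86 ± 0.13 (SE; adjusted p by limma, 5.42e-04), where 31.1% of all tested genes rose and 33.8% fell, 64.9% in all; 5 members rose and 3 fell there.

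RGF5 (AT5G51451), which also takes part in lateral root initiation, was the only member whose groups overlapped. It stood at 4.54, 13.8 and 5.80 TPM at 7DAC and at 7.91, 8.01 and 13.4 TPM at 0DAC. The log2 difference was -0.35 ± 0.44 (SE; adjusted p by limma, 0.598), and it was not called under any of the 16 alternatives, between which it ran from -0.77 to -0.01. Of all tested genes 19.3% were higher and 19.5% lower at 7DAC without overlap between the groups, 38.7% in all, while 5 of the 9 members were higher and 3 lower in this sense.

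**Figure D2:**
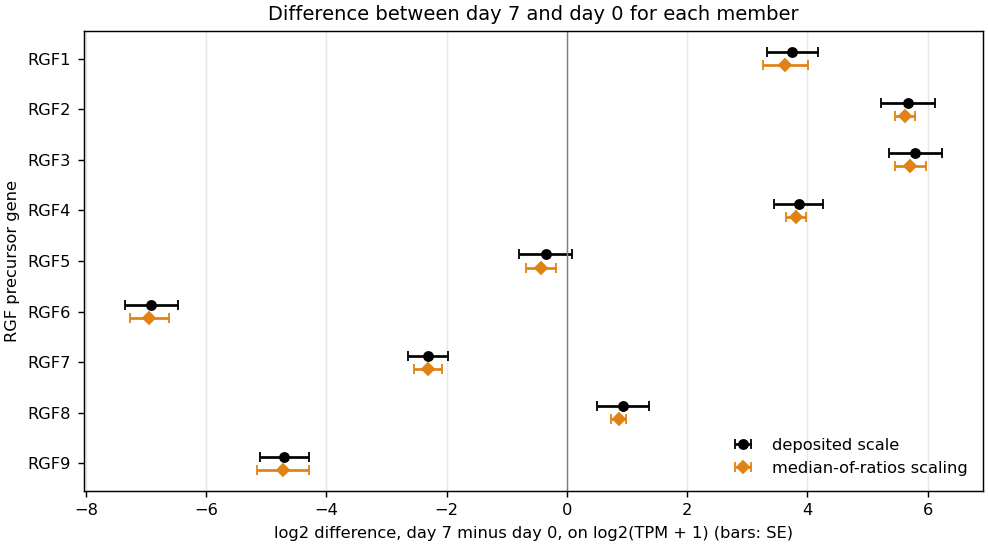
The x axis gives the log2 difference, 7DAC minus 0DAC, on log2(TPM + 1), with its SE as bars, and the y axis the 9 RGF genes; circles are the deposited scale and diamonds median-of-ratios scaling. Each member has the same direction on both scales, and the SE of RGF8 is 0.13 with scaling and 0.43 without.

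The order of the members was nearly the same in all libraries of a group and differed between the groups. In each 7DAC library it ran RGF3, RGF2, RGF8, RGF1, RGF4, RGF5, with RGF6, RGF7 and RGF9 at or near 0. RGF1 and RGF4, neighbours in this order, differed by less than their spread (22.0 ± 7.28 and 19.2 ± 5.67 TPM, SD, n = 3). At 0DAC RGF6 was the highest in all 3 libraries. RGF8 came next in replicates 1 and 3, ahead of RGF9, and RGF9 was ahead of RGF8 in replicate 2. RGF5 and RGF7 then followed, and RGF1 to RGF4 were the lowest.

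RGF1 to RGF4 together made up 79.2%, 73.0% and 79.6% of the summed RGF TPM in the 7DAC libraries, against 2.93%, 0.492% and 3.08% in the 0DAC libraries. RGF6, RGF7 and RGF9 together held 0.0665% of it in 7DAC replicate 1 and 0 in replicates 2 and 3, against 68.9%, 87.2% and 61.5% at 0DAC. Both sets were formed by the direction of their members in these same data, so their separation adds no support. RGF8 held 18.8% to 24.2% at 7DAC and 10.3% to 26.6% at 0DAC, so its share overlapped. The sum of all 9 members overlapped too, with 255, 500.1 and 364 TPM at 7DAC against 150.2, 394 and 152.0 TPM at 0DAC.

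**Figure D3:**
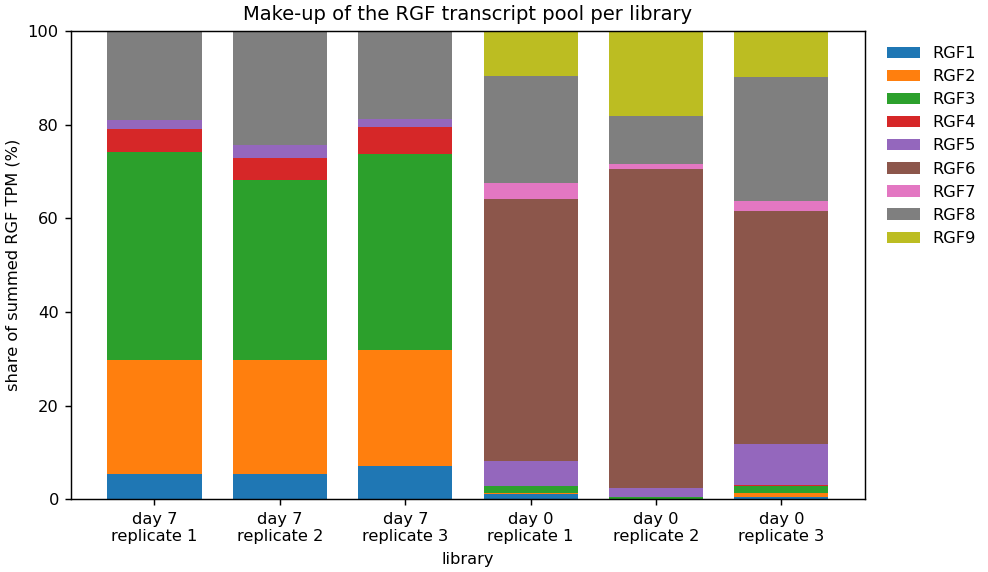
Each bar is 1 library, 7DAC at the left and 0DAC at the right, and the y axis gives the share of the summed RGF TPM held by each gene in percent. RGF3, RGF2 and RGF8 fill most of the 7DAC bars, and RGF6, RGF8 and RGF9 most of the 0DAC bars.

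A pair of further genes carries a GOLVEN name in the reference annotation. GLV9 (AT5G15725) stood at 3.74, 6.29 and 3.66 TPM at 7DAC, against 0.720, 0 and 0.260 TPM in 0DAC replicates 1, 2 and 3. It rose, with a log2 difference of 2.07 ± 0.34 (SE; adjusted p by limma, 1.76e-08), which is the direction of RGF1 to RGF4. GLV8 (AT3G02242), which directly follows RGF7 on the chromosome, was listed at 0 in all 7DAC libraries and reached 0.790 TPM at 0DAC, too low to be tested.

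The genes whose values ran most like those of RGF3 were named by distance. RGF3 was used because it had the highest mean over all 6 libraries, 77.3 TPM, and distances were taken on log2(TPM + 1) centred on each gene's own mean. The nearest was SUS4 (AT3G43190), a sucrose synthase, at a distance of 0.434, followed by RGF2 at 0.456, AT3G60415 at 0.473, AT1G51020 at 0.549 and AT1G19530 at 0.560. SUS4 stood at 90.0, 197 and 125 TPM at 7DAC and at 1.06, 0.820 and 1.99 TPM at 0DAC. The 6 libraries fall into 2 groups, so they are not 6 independent conditions. RGF4 and RGF1 ranked 88 and 93 by the same distance.

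Lists of RGF pathway genes, and of other sulfated peptides, their receptors and lateral root initiation regulators, were then read from the same fit. They hold 57 genes in 10 lists, of which 52 were tested, 10 rose, 17 fell and 25 did not pass, against 13.4% of all tested genes that rose and 16.2% that fell. The lists of other sulfated peptide precursors, their receptors and lateral root initiation regulators gave 7, 1 and 7 of these falls and 0 of the rises. With median-of-ratios scaling the rises numbered 20 and the falls 19, against 31.1% and 33.8% of all tested genes. Passing was common there, at 64.9% of all tested genes, and these shares stand beside every call on that scale below. The median log2 difference of all tested genes was 0.05.

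Of the enzymes that mature the peptides TPP2 rose and the others did not pass or could not be tested. TPST (AT1G08030), the tyrosylprotein sulfotransferase, stood at 12.3, 31.0 and 19.2 TPM at 7DAC and at 9.97, 18.5 and 12.7 TPM at 0DAC. These values overlapped, and its log2 difference of 0.52 ± 0.44 (SE; adjusted p by limma, 0.413) did not pass. It did pass as higher after median-of-ratios scaling (difference 0.45, adjusted p = 0.0100 by limma). TPP2 (AT4G20850), the subtilase SBT6.2 that trims peptides, rose 3.52-fold to 139 ± 47.9 TPM at 7DAC, against 39.4 ± 11.7 TPM at 0DAC (SD, n = 3 each; limma adjusted p = 2.66e-04). Of the 4 listed enzymes 1 rose, 2 did not pass and 1 was too low to be tested, with a median log2 difference of 0.65 over the 3 tested. After median-of-ratios scaling, where 31.1% of all tested genes rose, all 3 tested enzymes passed as higher. For S1P the adjusted p by limma was 0.00510. The enzyme gene AT4G10540 was at or near 0 in every library.

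The receptor genes went different ways. The 5 leucine-rich repeat kinases known to bind RGF peptides are given by AGI code, since the name table used has no RGF receptor names for them. AT5G48940 stood at 36.2, 85.0 and 50.6 TPM at 7DAC, against 2.52, 3.36 and 4.73 TPM at 0DAC. It rose 16.2-fold without overlap, with a log2 difference of 3.63 ± 0.44 (SE; adjusted p by limma, 1.16e-14). AT5G56040, also named SKM2, fell to 4.23, 10.8 and 5.13 TPM at 7DAC, against 22.1, 56.2 and 29.6 TPM at 0DAC, with a log2 difference of -2.25 ± 0.44 (SE; adjusted p by limma, 4.32e-06). AT5G48940 was thus the lowest receptor gene in each 0DAC library.

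AT4G26540 fell to 4.35, 11.31 and 6.99 TPM at 7DAC, against 11.32, 27.6 and 14.6 TPM at 0DAC (log2 difference -1.13, limma adjusted p = 0.0400). The highest 7DAC value and the lowest 0DAC value were almost equal, and the call was lost without 7DAC replicate 1, 7DAC replicate 3, 0DAC replicate 2 or 0DAC replicate 3, with no filter and with 5 added before the log. AT3G24240 had the highest mean of the 5 receptors at both times, though not the highest value in every library, with 61.1 ± 28.2 TPM at 7DAC and 38.9 ± 11.0 TPM at 0DAC (SD, n = 3 each; limma adjusted p = 0.333), and it passed as higher after median-of-ratios scaling (adjusted p by limma, 2.83e-03). AT1G34110 stood at 46.1 ± 19.9 TPM at 7DAC and 34.0 ± 18.9 TPM at 0DAC (limma adjusted p = 0.448). Of the 5 receptors 1 rose, 2 fell and 2 did not pass, with a median log2 difference of 0.48, and their summed TPM were 113, 267 and 156 at 7DAC against 82.3, 192.0 and 116 at 0DAC, which overlapped.

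Among 4 SERK co-receptors 1 rose and 3 did not pass, with a median log2 difference of 0.46. SERK2 (AT1G34210) stood at 18.6 ± 5.47 TPM at 7DAC and 7.11 ± 1.41 TPM at 0DAC (SD, n = 3 each; limma adjusted p = 0.0200), a call lost without 7DAC replicate 3 or any 1 of the 0DAC replicates. BAK1 (AT4G33430) was at 32.3 ± 14.5 TPM at 7DAC and 36.7 ± 17.0 TPM at 0DAC, and SERK1 (AT1G71830) at 26.1 ± 8.83 TPM at 7DAC and 12.3 ± 3.98 TPM at 0DAC (limma adjusted p = 0.812 and 0.0671), and SERK1 passed as higher after median-of-ratios scaling. None of the 5 MAP kinase cascade genes passed on the deposited scale by limma; 0 of the 5 had an unadjusted p below 0.05, and their median log2 difference was 0.0053. After median-of-ratios scaling 1 rose (YDA) and 1 fell (MKK5). MPK6 (AT2G43790), the most abundant, was at 36.2 ± 16.0 TPM at 7DAC and 30.2 ± 11.1 TPM at 0DAC. MKK5 (AT3G21220), a kinase above MPK6, stood at 17.1 ± 7.83 TPM at 7DAC and 26.9 ± 7.82 TPM at 0DAC (limma adjusted p = 0.251).

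Transcripts of most genes of the PLETHORA family, which holds known targets of RGF signalling in the root, rose. PLETHORA protein was not measured, and whether RGF peptides had a part in these rises was not tested. PLT1 (AT3G20840) stood at 47.3, 110.8 and 68.8 TPM at 7DAC, against 1.92 to 2.83 TPM at 0DAC. PLT2 (AT1G51190) stood at 13.3, 36.8 and 17.2 TPM at 7DAC, against 1.62, 2.64 and 3.43 TPM at 0DAC. BBM (AT5G17430), of the same AP2 family, was at 49.2 ± 20.1 TPM at 7DAC and 3.80 ± 1.40 TPM at 0DAC (SD, n = 3 each). The log2 differences were 4.38 ± 0.44, 2.62 ± 0.44 and 3.36 ± 0.44 for PLT1, PLT2 and BBM (SE; adjusted p = 3.86e-21, 3.41e-08 and 1.16e-12 by limma). Of 6 PLETHORA genes 4 rose and 2 did not pass, with a median log2 difference of 2.30, and 5 rose with median-of-ratios scaling.

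AT2G12646, a PLATZ transcription factor gene that responds to RGF1 in roots, rose to 10.8, 27.5 and 17.4 TPM at 7DAC, against 2.89, 2.11 and 4.56 TPM at 0DAC (log2 difference 2.18 ± 0.44, SE; adjusted p by limma, 7.19e-06). PIN2 (AT5G57090, listed as EIR1), the auxin carrier of root gravitropism, rose 3.65-fold to 22.1 ± 10.1 TPM, against 6.05 ± 0.799 TPM at 0DAC (SD, n = 3 each; limma adjusted p = 1.58e-03). The deubiquitinase genes UBP12 and UBP13 of the same list did not pass, so 2 of 4 rose, with a median log2 difference of 1.10. UBP13 passed as higher after median-of-ratios scaling (difference 0.52, adjusted p by limma 0.0204), which makes 3 of 4. Of 5 root stem cell niche factors 4 were tested, 1 rose and 3 did not pass, with a median of 0.26. SCR of the same list passed as higher too with median-of-ratios scaling (difference 0.68, adjusted p by limma 0.00595), which makes 2 that rose. SHR (AT4G37650), which patterns the ground tissue, rose 3.21-fold (limma adjusted p = 1.82e-03), and WOX5 (AT3G11260), the quiescent centre marker, stood at 16.1 ± 8.53 TPM at 7DAC and 17.6 ± 2.08 TPM at 0DAC (SD, n = 3 each; limma adjusted p = 0.752).

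Most precursor genes of other tyrosine-sulfated peptides fell. Of 9 listed precursor genes 8 were tested, 7 fell and 1 did not pass, with a median log2 difference of -1.66. After median-of-ratios scaling, where 33.8% of all tested genes fell, all 8 fell. AT2G16385 and AT4G34600, both among the 7, were listed from background knowledge and are not annotated as peptide precursors in the reference used. Without them 5 of 6 tested genes fell, with a median of -2.05. PSY1 (AT5G58650) did not pass. It stood at 21.8 ± 13.2 TPM at 7DAC and 36.1 ± 4.71 TPM at 0DAC (SD, n = 3 each). Its limma adjusted p was 0.119 as deposited and 0.0146, as lower, after median-of-ratios scaling. The phytosulfokine precursor PSK2 (AT2G22860) fell to 0.200, 0.310 and 0.430 TPM at 7DAC, against 12.8, 15.3 and 12.8 TPM at 0DAC. PSK1 (AT1G13590) fell to 4.85 ± 1.91 TPM at 7DAC, against 32.9 ± 6.90 TPM at 0DAC, and PSK4 (AT3G49780) to 0.887 ± 0.188 TPM at 7DAC, against 9.78 ± 5.40 TPM at 0DAC (SD, n = 3 each). Their log2 differences were -3.47 ± 0.39 for PSK2, -2.57 ± 0.45 for PSK1 and -2.41 ± 0.39 for PSK4 (SE; adjusted p by limma, 4.94e-17, 1.05e-07 and 1.26e-08). Among the listed receptors of sulfated peptides other than RGF, PSY1R (AT1G72300) fell to 0.743 ± 0.529 TPM at 7DAC, against 3.80 ± 2.20 TPM at 0DAC (limma adjusted p = 3.04e-04). PSKR2 (AT5G53890) was at 18.3 ± 8.93 TPM at 7DAC and 8.76 ± 2.40 TPM at 0DAC, and PSKR1 (AT2G02220) at 14.1 ± 5.67 TPM at 7DAC and 10.4 ± 6.06 TPM at 0DAC. Neither passed (limma adjusted p = 0.105 and 0.472), although PSKR2 did as higher after median-of-ratios scaling. The 2 other listed receptors were too low to be tested, and the median log2 difference of the 3 tested was 0.47.

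Lateral root initiation regulators fell in the callus libraries, as did RGF6, RGF7 and RGF9. Of 10 listed genes 7 fell and 3 did not pass, with a median log2 difference of -2.61, and CR4 of the remaining 3 passed as higher after median-of-ratios scaling. GATA23 (AT5G26930), a founder cell marker, was at 0.970 TPM in 7DAC replicate 1, listed at 0 in replicate 2 and at 0.210 TPM in replicate 3, against 72.2, 85.3 and 81.6 TPM at 0DAC. LBD29 (AT3G58190) and LBD16 (AT2G42430), auxin-induced factors, fell with log2 differences of -5.54 ± 0.44 and -3.54 ± 0.44 (SE; adjusted p by limma, 6.84e-34 and 1.75e-14). LBD29 stood at 51.4, 79.8 and 55.2 TPM in 0DAC replicates 1, 2 and 3, and LBD16 at 102, 142 and 108 TPM. The tissue label of the 0DAC libraries reads callus, while the design text describes freshly excised tissue. Whether these 0DAC levels are those of freshly cut hypocotyl was not tested. The list summed to 74.6, 177 and 94.8 TPM at 7DAC and to 509, 733 and 587 TPM at 0DAC. RGF5 and RGF8, the members linked to lateral root initiation, had log2 differences of -0.35 and 0.93, neither of which passed.

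**Figure D4:**
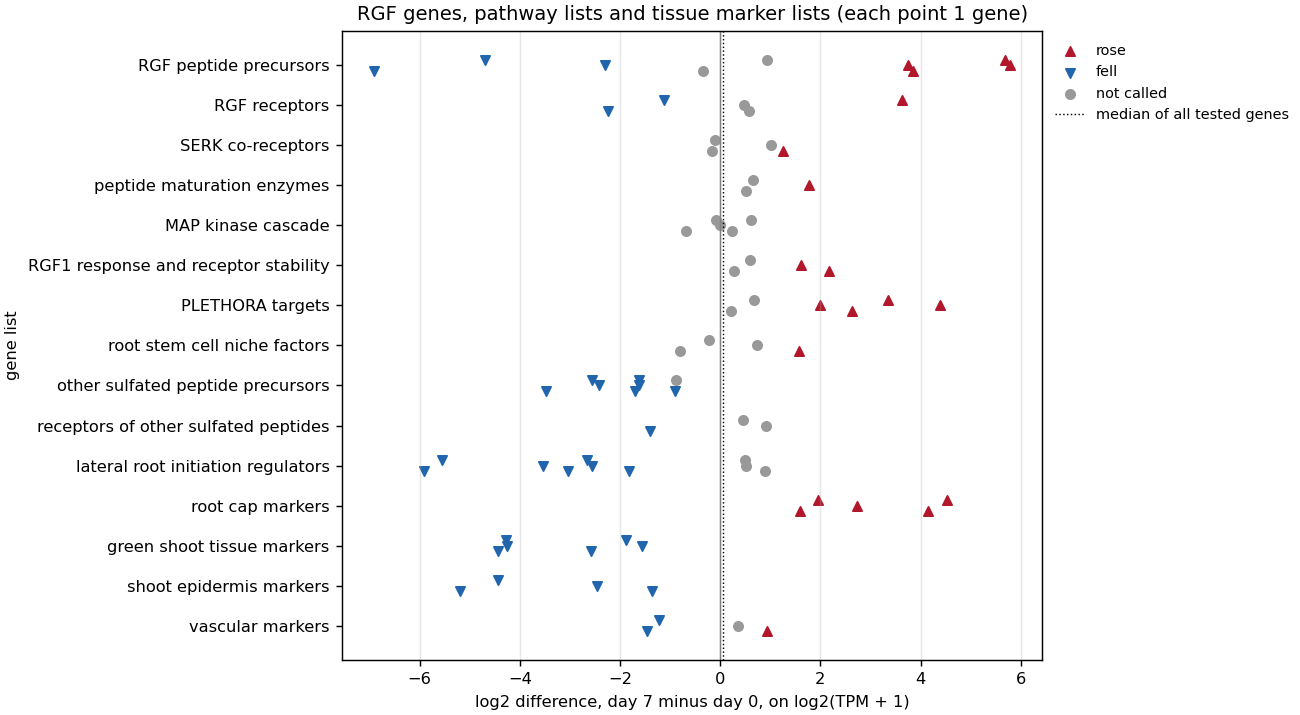
Each point is 1 tested gene, the x axis gives its log2 difference, 7DAC minus 0DAC, and the y axis the gene lists; upward triangles rose, downward triangles fell and circles did not pass, and the dotted line is the median of all tested genes, 0.05. PLETHORA genes and root cap markers lie to the right, and precursors of other sulfated peptides, lateral root initiation regulators and shoot markers mostly to the left.

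Marker lists of other tissues also differed between the groups, root cap in the direction of RGF1 to RGF4 and shoot tissues in that of RGF6, RGF7 and RGF9. All 5 root cap markers rose, with summed levels of 125 to 322 TPM at 7DAC against 26.9 to 49.5 TPM at 0DAC; BRN1 (AT1G33280, listed as NAC015), FEZ (AT1G26870) and BRN2 (AT4G10350, listed as NAC070) had log2 differences of 4.53, 4.15 and 2.73, and BRN2 was listed at 0 in 2 of the 3 0DAC libraries. All 6 green shoot tissue markers fell, with sums of 23.3 to 44.0 TPM at 7DAC against 128 to 667 TPM at 0DAC, where replicate 3 was highest; LHCB2.1, PSAL and RBCS1A had log2 differences of -4.43, -4.27 and -4.26. All 4 shoot epidermis markers fell, with sums of 12.7 to 40.3 TPM at 7DAC against 323 to 695 TPM at 0DAC. Among the 0DAC libraries replicate 2, the library with most RGF6 and RGF9, was highest. That library also had the highest share of nuclear protein-coding genes (86.4%), and the summed RGF receptors were highest there too, at 192 TPM. KCS1, CER6 (AT1G68530, listed as KCS6) and ATML1 had log2 differences of -5.20, -4.44 and -2.47. The part of these tissues in the RGF values was not tested.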

How the data were processed

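RNA-seq was made from total RNA of 3 libraries per group. The authors deposited 1 table of TPM rounded to 2 decimals; RSEM 1.3.1, STAR 2.7.10a and the TAIR10 build stand in the submitters' processing notes without roles, and the annotation, strand setting and filters are not given in the sources used here. Per the labels' protocols, a TruSeq kit was used for library preparation. Listed genes sum to 793808 to 922411 TPM per library; depth is unknown. All per-sample columns were used.

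Gene names and neighbours came from RefSeq's TAIR10.1 annotation, which matched 31189 of 31276 genes and all 85 list genes; because the build differs, no coordinates or sequences are printed. The 18608 genes that reached 1 TPM in 3 or more libraries were fitted by limma-trend 3.58.1 in R 4.3.3 on log2(TPM + 1), two-sided, with no further normalization; the adjusted p threshold was 0.05. Folds are ratios of group mean TPM, while log2 differences are on log2(TPM + 1), which understates changes of low genes. The members, lists and tests were chosen with earlier results of these data known. All 9 members are named; from each list come the 3 largest called differences and the largest opposite one, or, where fewer than 2 were called, the 2 most abundant tested genes, with receptors, TPST, AT2G12646, PLT1 and PLT2 always. A lone called member (SERK2, PSY1R) and YDA, CR4, S1P, SCR, AT4G10540, AT2G16385, AT4G34600, PIN2's list mates UBP12 and UBP13 and AT1G13630 and AT4G16510, the overlapping genes, were named after their values were seen. So were PSY1 and IRX3. Tables were built in Python 3.11.15 (numpy 2.4.6, pandas 2.3.3) and plots drawn by matplotlib 3.10.9.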

Additional observations from a re-analysis of the deposited data

How the results depend on the processing

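The rises of RGF1 to RGF4 and the falls of RGF6, RGF7 and RGF9 were called under all 16 alternatives, except that RGF7 was not testable with a TPM minimum of 5. RGF8 passed as higher in 6: 0.86 (log2 difference) with median-of-ratios scaling, 1.17 with quantile normalization, 0.93 with the replicate block, 0.86 with the replicate block after median-of-ratios scaling, 1.33 when TPM were rescaled to the nuclear protein-coding total (chosen after seeing the data) and 1.23 without 7DAC replicate 1; leaving out single libraries gave 0.58 to 1.23. Calls over all genes numbered 5512, against 12081, 11755, 10119, 11995 and 13135 under the first 5 of these in the same order. Of the calls 45.3% were rises, but 70.3% after the nuclear protein-coding rescaling, where the median of all genes was 0.42, against 0.05 as deposited. Calls ran from 3560 (without 7DAC replicate 3) to 7219 with single libraries left out. Rises over the 10 lists of pathway and related genes numbered 10, against 20, 22, 23, 21 and 27 in that order. BAK1 (0.22) and WOX5 (0.15) turned upward with the nuclear protein-coding rescaling, without passing, and with single libraries left out BAK1 ran from -0.50 to 0.17, WOX5 from -0.61 to 0.0047 and MPK6 from -0.10 to 0.50. The causes were not tested. The values did not settle whether replicate numbers mark pairs. On the deposited scale, deviations of libraries with the same number correlated across genes at 0.097, 0.16 and 0.032 for replicates 1, 2 and 3. There 7DAC replicates 1 and 2 correlated best with their own number, and 7DAC replicate 3 with 0DAC replicate 1 (0.12). After median-of-ratios scaling 7DAC replicate 1 correlated about equally with 0DAC replicates 1 and 3 (0.063 and 0.066). The share of nuclear protein-coding genes increased in the order of replicates 1, 3 and 2 in both groups. The block is given here only. TPM hold no depth, so whether RGF6 and RGF9 had any reads at 7DAC cannot be told.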

Other observations

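The genes that flank the RGF members mostly did not pass the test. Of 18 flanking genes in the TAIR10.1 annotation 16 were in the table and 11 were tested, of which 1 rose, 1 fell and 9 did not pass. AT1G13610, before RGF2, rose to 3.30, 4.08 and 3.21 TPM at 7DAC, against 0.510, 0 and 0.620 TPM in 0DAC replicates 1, 2 and 3 (log2 difference 1.74, limma adjusted p = 1.69e-06). RGP1 (AT3G02230), before RGF7, fell to 129, 351 and 188 TPM at 7DAC, against 312, 625 and 394 TPM at 0DAC (log2 difference -1.06, limma adjusted p = 0.0454).

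Vascular markers went both ways. Of 4 listed genes 1 rose, 2 fell and 1 did not pass, against 13.4% of all tested genes that rose and 16.2% that fell. The phloem genes APL (AT1G79430) and SUC2 (AT1G22710) fell to 2.16 ± 0.814 and 3.02 ± 2.63 TPM at 7DAC, against 7.51 ± 0.804 and 7.39 ± 1.68 TPM at 0DAC, and the xylem vessel factor VND7 (AT1G71930) rose to 2.32 ± 0.723 TPM at 7DAC, against 0.700 ± 0.121 TPM at 0DAC (SD, n = 3 each; limma adjusted p = 2.03e-03, 0.0130 and 0.0166). The groups of SUC2 overlapped, and each of the 3 calls was lost without 7DAC replicate 3. The SUC2 call was also lost with no filter and without 7DAC replicate 1 or 0DAC replicate 3, and the VND7 call without 0DAC replicate 1 or 3.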
